A study of Mus musculus with 10 samples.

Results

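The Cebpb locus of mouse macrophages was described through the places where RelA and the glucocorticoid receptor (GR) were called by chromatin immunoprecipitation and sequencing (ChIP-seq). Every region that overlapped a 240 kb window of the mm9 build, chromosome 2, 167460000 to 167700000, was taken from the 7 RelA lists and the 2 GR lists. The window was set to hold Cebpb and the flank towards Ptpn1, and it was selected on the high RelA scores and tag densities of its regions at 3 and 8 h of LPS, which are therefore given as a description. It held 47 of the 114312 regions of the 9 lists, and these fell on 21 separate sites when regions sharing at least 1 bp were joined. None of the 765 regions of the input list lay in the window, so no member overlapped one.

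Cells were primary bone marrow derived macrophages of C57BL/6J mice. RelA, the p65 subunit of NF-κB, was precipitated from cells given the glucocorticoid dexamethasone (Dex) 3 h before 0, 3 or 8 h of lipopolysaccharide (LPS), from cells with 8 h of LPS and late Dex, and from cells with 0, 3 or 8 h of LPS and no Dex. GR was precipitated from cells given LPS with Dex and from cells given Dex, fixed with disuccinimidyl glutarate as well as formaldehyde, and the labels give neither the GR times nor the hour of late Dex. Input DNA came from untreated cells. Each condition had 1 library, so values below have no replicate error, no test between conditions was possible, and each difference describes these libraries.

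C/EBPβ, the product of Cebpb, is a leucine zipper transcription factor that macrophages use to switch on cytokine and acute-phase genes, often at the same control elements as NF-κB. LPS acts through Toll-like receptor 4, which frees NF-κB dimers such as those with RelA from their cytoplasmic inhibitors and lets them bind DNA. GR is a ligand-activated nuclear receptor that binds DNA directly or sits on it through other factors, and it can raise anti-inflammatory genes and hold back NF-κB targets. In the RefSeq gene table, which is on another build (GRCm38.p6) and was used for gene order only, Tmem189 is the nearest protein-coding gene on one side of Cebpb and Ptpn1, a tyrosine phosphatase gene, on the other. All 13 genes listed between Cebpb and Ptpn1 are long non-coding RNA genes. Gene positions on mm9 were not used here, so the distance of a site from the Cebpb start, and whether it lies downstream, is not stated. Binding alone does not mark an enhancer, and the places are called sites.

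The promoter of Cebpb is shown because it is the control element of the gene after which the locus is named. It is the 250 bases before the RefSeq start, GRCm38.p6 chr2:167688665-167688914, plus strand, and this position is on a build that cannot be set against the mm9 positions of the regions. Capitals mark the CRE core TGACG on either strand, the letters at the heart of cAMP response elements.
Cebpb: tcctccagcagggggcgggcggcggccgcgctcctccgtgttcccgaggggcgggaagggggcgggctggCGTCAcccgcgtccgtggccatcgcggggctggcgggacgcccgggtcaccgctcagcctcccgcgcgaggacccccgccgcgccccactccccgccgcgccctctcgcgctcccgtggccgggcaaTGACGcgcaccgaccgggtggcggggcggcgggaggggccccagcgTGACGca
The CRE core stood at 3 places, starting 180, 53 and 7 bases before the start, and 17.8% of the 32851 promoter windows of this length held it at least once. The NF-κB consensus, the GR half-site AGAACA and the C/EBP motif TTNCNNAA had no match on either strand, while 7.25%, 16.1% and 36.8% of all windows held them. The 3 CRE matches did not overlap each other. These are matches of letters, not measured sites, and 81.6% of the 250 bases were G or C.

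RelA and GR regions were counted in each list and set beside stretches of the same length. With Dex given before LPS, RelA was called at 2 regions of the window at 0 h of LPS, 1 at 3 h and none at 8 h. Late Dex with 8 h of LPS gave 2 regions. Without Dex the lists had 1 region at 0 h, 10 at 3 h and 3 at 8 h. GR was called at 18 regions when LPS was given with Dex and at 10 with Dex. Among 11017 tiles of 240 kb over the chromosomes, the mean was 0.455 regions for RelA at 3 h, and 12 tiles (0.109%) held 10 or more; the window was selected on its RelA regions, so nothing is read from this count. For GR a tile held 4.69 regions on average in the list of LPS and Dex and 5.01 in that of Dex, and 0.917% and 16.1% of tiles held at least as many as the window.

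**Figure D1:**
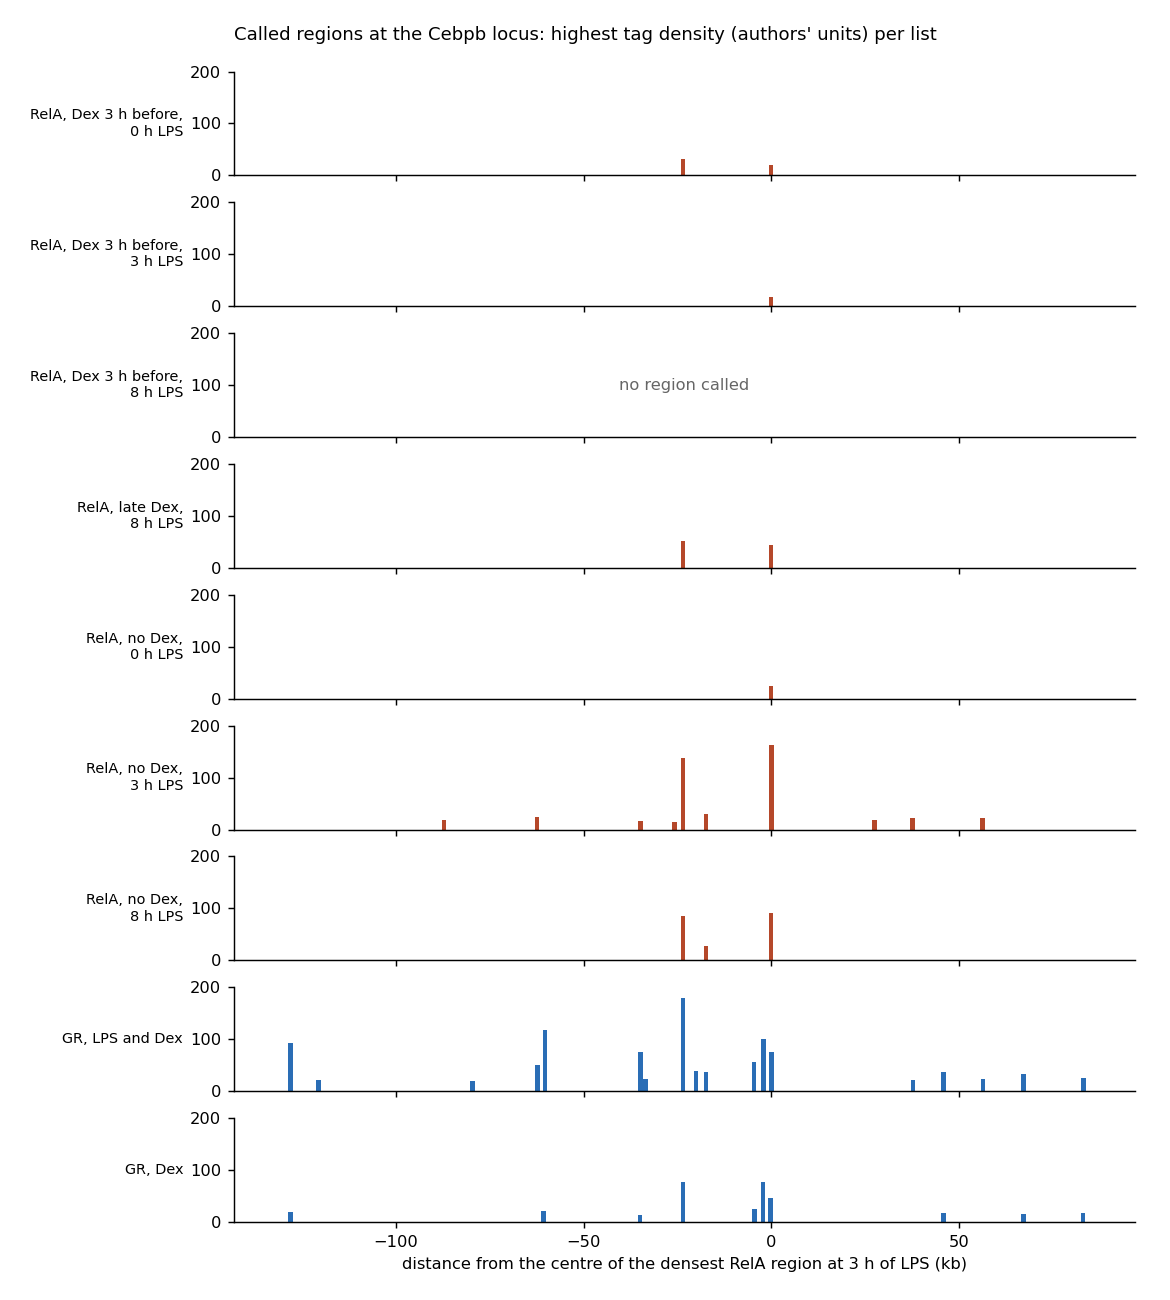
Each panel is 1 list, the horizontal axis gives the distance in kb from the centre of the densest RelA region at 3 h of LPS, and a bar, drawn wider than the region, gives the highest tag density of a called region in the authors' units. RelA bars reach 162 at 0 kb and 137 at -23.5 kb in the 3 h panel without Dex, the 8 h panel with Dex before LPS is empty, and GR bars spread over the whole window.

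GR regions of the window were all of high tag density, the height of stacked tags in the authors' own units, whose scaling between libraries is not stated. All 18 with LPS and Dex and all 10 with Dex had a highest density of at least 10, a bound met by 32.2% and 7.28% of the whole lists. The window's values ran from 19.9 to 180 with LPS and Dex (median 38.0, against 4.01 in the whole list) and from 14.3 to 77.6 with Dex (median 19.9, against 2.99). Counting such dense regions alone, 0.109% of tiles held 18 or more with LPS and Dex, and 0.200% held 10 or more with Dex. The bound was set after the data had been seen and lies below every GR value of the window. It therefore keeps all GR regions of the window while removing most of both lists, and nothing is read from these 2 shares of tiles.

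RelA and GR shared 7 of the 21 sites, RelA was called without GR at 3, and GR without RelA at 11. Of the 10 RelA sites, 7 were called in a single RelA list, that of 3 h without Dex. Only 3 sites were called in more than 1 RelA list, and 2 of those carried the high densities of the locus.

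The densest RelA site lay at chromosome 2, 167602606 to 167603704. Its highest tag density was 19.9 and 17.9 with Dex before 0 and 3 h of LPS, 43.3 with late Dex and 8 h of LPS, and 25.0, 162 and 90.7 without Dex at 0, 3 and 8 h. It was not called with Dex before 8 h of LPS. The site was thus in 6 of the 7 RelA lists, with its peak at 3 h without Dex and low values in both pretreated lists that held it. The authors' score, a z-score per region, was also highest at 3 h without Dex, although at 0 h it was slightly higher with Dex, with 18.5 and 11.7 after pretreatment at 0 and 3 h, 26.3 with late Dex, and 17.7, 110.1 and 59.0 without Dex at 0, 3 and 8 h. Within the lists, it ranked 42 of 75 and 35 of 84 by density with Dex before 0 and 3 h of LPS, 12 of 250 with late Dex, and 25 of 83, 3 of 5017 and 28 of 1890 without Dex at 0, 3 and 8 h. Both GR lists held the site, with a density of 75.0 for LPS and Dex and 46.7 for Dex.

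A second strong site lay 23516 bp away, centre to centre, at chromosome 2, 167579181 to 167580092. Its density was 30.6 with Dex before 0 h of LPS, 51.6 with late Dex and 8 h of LPS, and 137 and 84.5 without Dex at 3 and 8 h. No region was called there with Dex before 3 or 8 h of LPS, nor at 0 h without Dex. So the second site was called in 4 RelA lists and, unlike the densest one, appeared in cells without LPS only in the Dex-treated library. Its ranks by density were 11 of 75 with Dex before 0 h of LPS, 6 of 250 with late Dex, and 5 of 5017 and 39 of 1890 without Dex at 3 and 8 h. For GR it was the densest site of the locus with LPS and Dex, 180 (rank 75 of 51639), and the one after the top with Dex, 76.8 (rank 82 of 55196). High density in RelA and GR lists alike therefore met at this place.

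The third RelA site called more than once, at chromosome 2, 167585365 to 167586051, was much lower. Its density was 30.6 at 3 h and 28.0 at 8 h of LPS without Dex, and none of the other RelA lists held it. GR was called there with LPS and Dex, at 36.4, and not with Dex. The gap to the nearest GR region of the Dex list was 5467 bp.

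**Figure D2:**
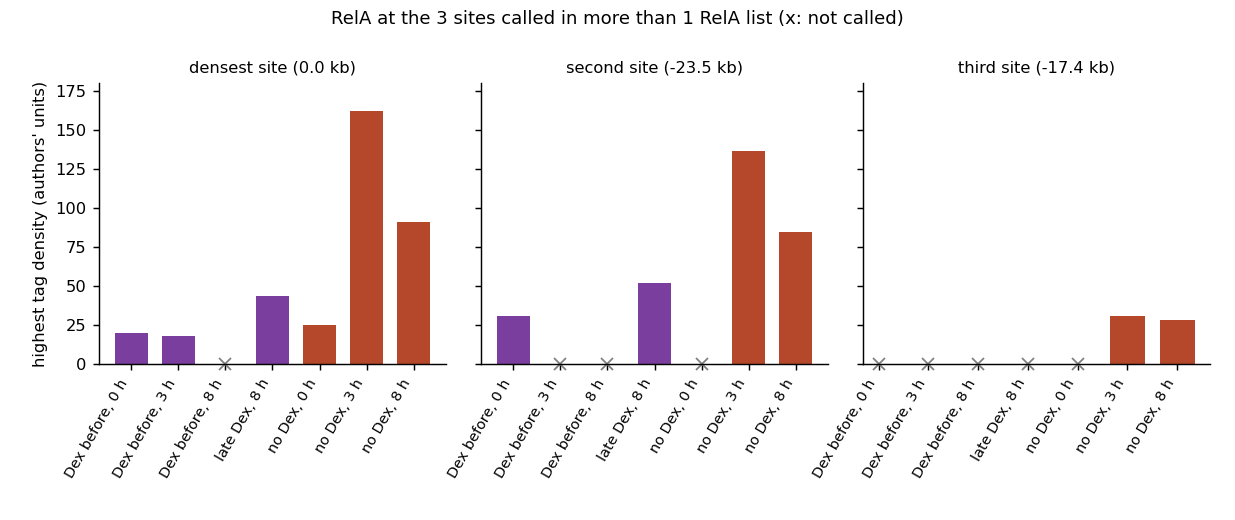
Bars give the highest tag density of RelA, in the authors' units, at the 3 sites called in more than 1 RelA list, with Dex-treated libraries in purple left of those without Dex, and a cross where no region was called. At the densest site all lists but Dex before 8 h of LPS have a bar, at the second site Dex before 0 h of LPS has one (30.6) while 0 h without Dex has none, and at the third only 3 h and 8 h without Dex have bars.

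The 7 RelA sites called at 3 h of LPS alone were far below the strong ones. Their densities ran from 15.1 to 24.4 with a median of 18.7, close to the median of 18.5 of the whole 3 h list, and their scores from 8.89 to 14.3. In 4 of them GR was called as well. At 167540496 to 167541032 RelA had a density of 24.4, with GR at 50.2 for LPS and Dex and not called for Dex. At 167568100 to 167568372, scored 8.89 against a lowest score of 8.88 in the list, RelA had 17.0 and GR 76.3 with LPS and Dex and 14.3 with Dex. By score this RelA region ranked 5014 of 5017, and by density 2984.

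The weak RelA regions at 167640601 to 167640995 (22.6) and 167659091 to 167659731 (22.3) met GR regions of LPS and Dex, at 21.5 and 24.0, and none of Dex. No GR region overlapped those at 167515746 to 167516204 (18.1), 167577242 to 167577567 (15.1) and 167630379 to 167630853 (18.7). The gap from these 3 to the nearest GR region of LPS and Dex was 7124, 1624 and 9771 bp.

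The LPS course at the locus was read against the whole lists. Of the 10 regions at 3 h, 3 were called at 8 h, beside 31.2% of the 5017 regions of the 3 h list (Wilson 95% interval 29.9 to 32.5, counting error only). All 3 regions at 8 h were called at 3 h, beside 83.9% of the 8 h list. Neither count stood far from its background. At 0 h 1 of the 10 was called, beside 1.06%, and with Dex before 0 h of LPS 2 were, beside 0.937%.

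At regions called at both times, the log2 ratio of density, 8 h over 3 h, was -0.84 at the densest site, -0.70 at the second and -0.13 at the third. Over all 1586 such pairs the median was 0.03 (quartiles -0.36 and 0.35), and 6.05%, 9.84% and 38.8% of pairs lay lower. The median over pairs stands in for the unstated scaling between libraries. Pairs that were dense at 3 h had low ratios as a group: the median was -0.31 (quartiles -0.72 and 0.06) over the 248 pairs with a 3 h density of at least 50. In that group 47 pairs lay below the densest site and 65 below the second. Only 6 pairs, both sites included, were as dense at 3 h as the second site or denser. All 6 ratios were below 0, with a median of -0.73 and a range of -2.39 to -0.27, so both sites were usual for their density. Across the genome 3 input regions were called in every RelA list. Their median density was 53.1 in the 8 h library and 102 in the 3 h library, and their lowest 17.9 and 16.5. So densities at input regions differed between these libraries too, and not all in 1 direction. The part of this in the ratios was not tested.

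The RelA lists with Dex before LPS were short, with 75, 84 and 78 regions at 0, 3 and 8 h of LPS. That few of these regions fell in the window is therefore not read as a trait of the locus. Of the 10 regions at 3 h without Dex, the pretreated 3 h list held 1, that of the densest site, beside 0.598% of the whole list. That call was lost, leaving 0 of 10, under an overlap of 50% or more of each region. Of the 3 regions at 8 h, the pretreated 8 h list held none, beside 0.582%. The densest site was called in the pretreated libraries at 0 h and 3 h but not at 8 h. Regions called at 0 h without Dex reappeared in the pretreated 8 h list in 30.1% of cases and in the pretreated 3 h list in 38.6%, input overlaps included, so most regions of a short list were not called in another short list. At the input regions called in every RelA list the median density was 85.7 and 65.9 with pretreatment at 3 and 8 h of LPS, against 102 and 53.1 without Dex at those times. At 3 h their lowest and highest went the other way, 19.9 and 133 with pretreatment against 16.5 and 128 without Dex.

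Without LPS, Dex went with a call at the second site. Among the 75 regions with Dex before 0 h of LPS, 17 (22.7%) were called at 3 h of LPS without Dex and not at 0 h without Dex, and outside input regions it was 13 of 43 (30.2%). The second site of the Cebpb locus had the highest density of those 13, 30.6, while the others ran from 8.21 to 28.1. The 0 h list without Dex had regions down to a density of 2.94, and what density the second site had below the authors' threshold there is unknown. At the input regions called in every RelA list the median density was 110 with Dex before 0 h of LPS against 64.1 at 0 h without Dex. The part of this in the call at the second site was not tested.

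Both strong sites were called with late Dex. The list with late Dex held 2 of the 3 regions of 8 h without Dex, beside 11.1% of the whole 8 h list, and the missing one was the third, weaker site. Among the 39 regions at 8 h that were as dense as the second site or denser, 35 (89.7%) were called with late Dex, so the call of both sites was usual for their density. Both were lower than without Dex, 43.3 against 90.7 at the densest site and 51.6 against 84.5 at the second.

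The drop with late Dex was smaller than at most strong regions. The log2 ratio of density, late Dex over no Dex, was -1.07 at the densest site and -0.71 at the second, while the median of all 208 pairs was -1.17 (quartiles -1.54 and -0.63). Over the 117 pairs with a density of at least 50 at 8 h without Dex, the median was -1.50 (quartiles -1.67 and -1.21) and 115 ratios were below 0. Of those pairs, 8 lay above the second site and 18 above the densest site. With at least 50% of both regions shared, the ratio of the densest site less the median of all pairs was -0.000421, in place of 0.11, so its place above that median was not kept. At the input regions called in every RelA list the median density was 84.2 with late Dex against 53.1 without. With late Dex and with Dex before 0 h of LPS the second site was the denser of the pair, and at 3 h and 8 h without Dex it was the less dense.

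**Figure D3:**
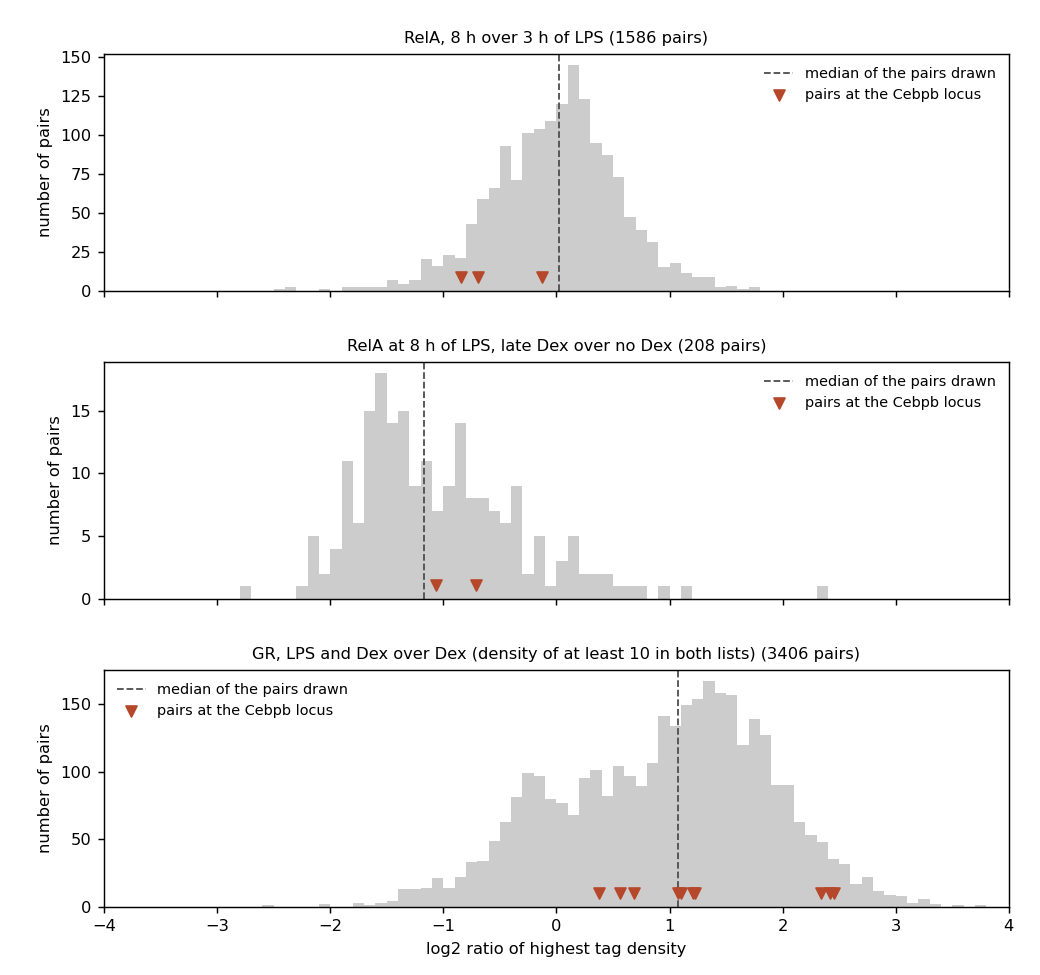
Grey bars count pairs of overlapping regions by the log2 ratio of their highest tag density, the dashed line is the median of the pairs drawn in that panel, and triangles are the pairs of the Cebpb locus. The locus lies left of the median for RelA at 8 h over 3 h, right of it for late Dex over no Dex, and on both sides for GR, where only pairs with a density of at least 10 in both lists are drawn and 3 triangles lie near 2.4.

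The strong sites stood among the 20 densest RelA regions of the 3 h list. Of those 20, 19 were called at 8 h, 19 with late Dex, 11 at 0 h without Dex, 10 with Dex before 0 h of LPS, 7 with Dex before 3 h and 4 with Dex before 8 h, although 3 of the 20 overlapped input. The GR lists held 17 of them with LPS and Dex and 10 with Dex. The 3 that overlapped input were called at 0 h without Dex and with Dex before 0, 3 and 8 h, so they are among those counts. Calls at 8 h and with late Dex were therefore common at such density, while calls with Dex before 3 or 8 h were not. The set of 6 lists that called the densest site, whether or not the seventh did, was shared by 11 of the 5017 regions at 3 h, 7 of them outside input. The second site's set, with 3 h, 8 h, late Dex and Dex before 0 h but without 0 h and whatever the 2 later pretreated lists held, was shared by 9, all outside input.

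RelA and GR regions were matched by overlap. Of the 10 RelA regions at 3 h, 7 met a GR region of LPS and Dex, beside 61.9% of the whole list, and 3 met one of Dex, beside 17.7%. All 3 regions at 8 h met GR of LPS and Dex, beside 85.7%, and 2 met GR of Dex, beside 18.5%. RelA libraries without Dex and GR libraries with it come from cells treated differently, so a shared site does not place both proteins on the same DNA. Centres of RelA and GR of LPS and Dex lay 3 bp apart at the densest site, 39 bp at the second and 27.5 bp at the third. The range was 3 to 67.5 bp over the 7 pairs, with a median of 36.5 bp, against a median of 53.5 bp over the 3105 pairs of the whole list. Matching by overlap itself keeps these distances short, and nothing particular to the locus is read from them.

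GR was called at more sites of the window than RelA, but both GR lists were far longer than any RelA list. The GR list of LPS and Dex held 51639 regions and that of Dex 55196. The longest RelA list, 3 h without Dex, held 5017. Nothing about the locus is therefore read from GR having more sites than RelA. Between the GR lists, that of LPS and Dex was the shorter and had more sites in the window. Of regions with a density of at least 10, as all GR regions of the window were, it had the more, 16612 against 4018. Its larger count of sites is therefore not read as a trait of the locus. All 10 regions of the Dex list met a region of LPS and Dex, beside 35.2% of the whole Dex list and 88.8% of its regions with a density of at least 10. Conversely 10 of the 18 regions of LPS and Dex met one of Dex, beside 37.7% of the whole list and 22.9% of its dense regions. Seen from GR, 7 of the 18 met RelA at 3 h, beside 6.05% of the whole list and 18.5% of its dense regions. The window was selected on its RelA regions, so nothing is read from this share.

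Sites with GR and no RelA included some of the strongest GR calls of the locus. At 167542148 to 167543680, the widest region with 1532 bp, GR had a density of 118 with LPS and Dex and 21.5 with Dex. At 167600568 to 167601430 it was 101 with LPS and Dex and 77.6 with Dex, the highest value of the Dex list in the window. This region ended 1176 bp short of the densest RelA site, and no RelA list held it. A further site at 167474604 to 167475386 had 93.1 with LPS and Dex and 18.4 with Dex.

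The next 3 of the GR sites without RelA were named for their density. The site at 167598257 to 167598931 had 56.3 with LPS and Dex and 24.4 with Dex. That at 167582843 to 167583394, between the second and the third RelA site, had 39.1 with LPS and Dex and was not called with Dex. At 167648730 to 167649347 the values were 36.9 with LPS and Dex and 17.5 with Dex. The other 5 had 19.9 to 33.0 with LPS and Dex, and 2 of them were called with Dex, at 15.4 and 17.2.

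**Figure D4:**
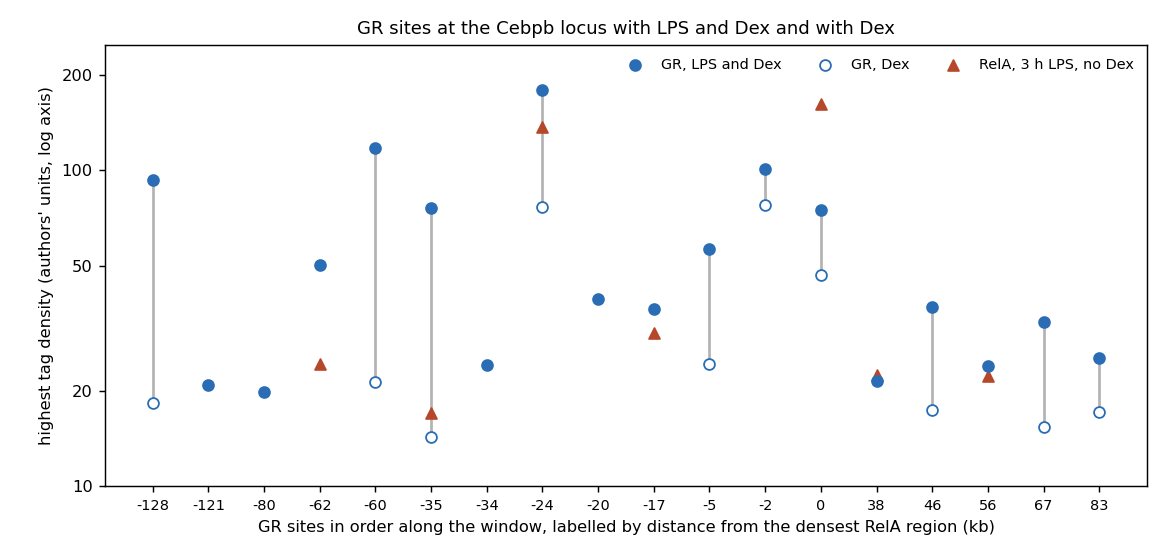
The 18 sites with GR are set in order along the window and labelled by their distance in kb from the densest RelA region, and the logarithmic axis gives the highest tag density in the authors' units for GR with LPS and Dex (filled), GR with Dex (open) and RelA at 3 h without Dex (triangles). Filled points lie above open ones at all 10 sites called in both GR lists, by the most at -128, -60 and -35 kb.

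The ratio of GR density between the library of LPS and Dex and that of Dex differed along the locus. At the 10 sites of both lists the log2 ratio of density, LPS and Dex over Dex, was above 0 on the deposited scale, with a median of 1.15. Over all 19466 pairs of the GR lists the median was 0.16 and all 10 sites lay above it. Over the 3406 pairs with a density of at least 10 in both lists, the closer comparison, it was 1.07 (quartiles 0.26 and 1.62), and 7 of the 10 sites lay above and 3 below. Among these dense pairs 3 sites were far above the median, with 2.34 at 167474604, 2.45 at 167542148 and 2.42 at 167567862, where 95.0%, 96.2% and 95.8% of pairs lay lower. The pair at 167542148 was lost under stricter overlap, and the pair at 167567862 when a score of at least 11 was asked. Of these 3 pairs, only that at 167474604 was kept under both settings. The site at 167600568 had 0.38 and the densest RelA site 0.68, where 28.4% and 36.8% of pairs lay lower. At the second RelA site it was 1.23, and 56.7% lay lower. Among these 10 sites, the 3 largest ratios all lay on the side of lower coordinates. They were at -128, -60.2 and -34.9 kb from the densest RelA site. More of the 10 sites lay on that side than on the other, and sites not called with Dex have no ratio. The smallest ratios were at the densest RelA site, at the GR site at -2.16 kb and at 167686010 (0.57). These were the 3 sites below the median of the dense pairs.

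The window's edges cut no region. Just inside on the low side was the site at 167474604 (GR 93.1 with LPS and Dex and 18.4 with Dex), and just outside, 44869 bp before the edge, a faint one of RelA at 3 h (15.6) with GR at 13.5 for LPS and Dex and 10.1 for Dex. On the high side the last site inside was at 167686010 (GR 25.5 and 17.2). Beyond the edge came RelA at 3 h from 167710930 (21.3), GR of LPS and Dex from 167711739 (30.9) and RelA at 8 h from 167735228 (40.6). The next GR region of the Dex list was 1169122 bp past the edge, with a density of 2.39.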

How the data were processed

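The deposited files are 10 lists of enriched regions, 1 per library, on mm9. Per the labels' protocols, RelA cells were fixed with 1% formaldehyde and GR cells with 2 mM disuccinimidyl glutarate first, and reads were single-end, 51 nt. CASAVA appears in the submitters' processing notes. How regions were called and at what threshold, any use of input, the start base of coordinates and the read depth are not given in the sources used here. Highest and mean tag density are signal values per region, per the file headers, with no scaling between libraries given. Each region's score is a z-score by the authors, as the deposited headers name it. The deposited p-value of a region was not used. Low regions below the authors' threshold are missing from the lists, so "not called" is not a density of 0, and short lists can miss sites for lack of depth.

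Regions were matched within and between lists by at least 1 bp (Python 3.11.15, pandas 2.3.3, numpy 2.4.6, scipy 1.17.1), and the matching was tested on simulated regions. Density ratios used, for each region of the first list, the densest overlapping region of the second. Tiles of 240 kb started at the first base of each chromosome. All RelA regions of the window are named, and GR regions that met them or were among the 5 densest of each list without RelA. Alternatives were stricter overlap, a score of at least 11, input overlaps left out and a window wider or narrower by 20000 bp. The window, the sites and the lists compared were chosen with earlier results of these data known. The density bounds of 10 and 50 and the 20 densest regions were added after the data had been seen. Deposited file names of some libraries carry times that the labels do not explain, and the labels were followed.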

Additional observations from a re-analysis of the deposited data

Results flagged for a closer look

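RelA with Dex before LPS was set against RelA without Dex, at 0 h and at 3 h of LPS. The difference changed direction at the second strong site by calls, and at the densest site by score but not by density. A region not called was counted as 0 for this flag. At the second site the flag therefore rests on calls alone, and the densities that were not called are unknown. At the densest site the score was only slightly higher with Dex at 0 h. At the second site (167579181 to 167580092), RelA was called with Dex and 0 h of LPS, at a density of 30.6 and a score of 19.5, and was not called at 0 h without Dex. At 3 h of LPS it was not called with Dex, against a density of 137 and a score of 86.9 without Dex. At the densest site (167602606 to 167603704), the score at 0 h was 18.5 with Dex and 17.7 without, and at 3 h it was 11.7 with Dex and 110.1 without. By density the densest site was lower with Dex at both times, 19.9 against 25.0 at 0 h and 17.9 against 162 at 3 h. With 1 library per condition and an unknown scaling between libraries, these differences between 0 h and 3 h were not tested.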

How the results depend on the processing

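Over 39 results, 179 values were recomputed, and 164 stayed within the bounds set for a change. The bounds were 1.5 times for a count, 0.1 for a log2 ratio and the Wilson 95% interval for a share of tiles. A ratio whose pair was lost under a setting had no value and is not among the 179. This happened to the GR pair at 167542148 under stricter overlap. It also happened to the GR pairs at 167567862 and 167686010 when a score of at least 11 was asked. Leaving out regions that overlap input changed no count in the window. Requiring at least 50% of both regions to be shared left 0 of the 10 regions at 3 h called with Dex before 3 h of LPS, in place of 1. That setting also put the late Dex ratio less the median of all pairs at 0.18 for the locus, in place of 0.28, and at -0.000421 for the densest site, in place of 0.11. So only the second site was clearly above that median under both settings. With GR regions of density at least 10, a setting added after seeing the data, the median GR ratio of the locus less that of all pairs was 0.079, in place of 0.99. It was then -0.70 at 167600568, -0.39 at 167602653 and -0.51 at 167686010, sites that lay above the median of all pairs without that bound; fewer low-density pairs enter by construction. No paired analysis was possible because each condition had 1 library. Leaving out a replicate was not possible for the same reason. The lists, of unknown depth, cannot tell a weak site from an empty one.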
